A study of Mus musculus with 77 samples.

Results

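Interferon-stimulated genes are the genes that cells switch on when interferon, a secreted alarm signal of viral infection, binds its receptor. A list of 34 such mouse genes was followed by gene symbol, and all 34 were among the 13084 genes measured in blood, while 24 were among the 16587 genes measured in a brain region of the extended amygdala called bed nucleus of the stria terminalis, or BNST. Membership is set by a list of names and uses no measured value, though the list was chosen with earlier results of these data known.

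All mice were 8-week-old males of the strains C57BL/6Crl (B6) or DBA/2Crl (D2), which the study's methods write as C57BL/6NCrl and DBA/2NCrl, and a part of each strain went through chronic social defeat stress (CSDS), in which a mouse is exposed repeatedly to a larger aggressor. The paper's test compared the time a mouse spent near an enclosure holding a social target with the time near it when empty. Defeated mice were labelled susceptible when this ratio fell over 1 SD below the mean of controls of their own strain, and resilient otherwise. The border therefore differed between strains, and mean contact with an aggressor was longer in B6 than in D2 mice. Controls were not defeated, and tissue was taken 6 to 8 days after the last defeat. Per the paper, the sequenced resilient and susceptible mice were the extremes of social interaction, and the controls were those nearest the control mean. The paper also describes a forced swim test 5 days after CSDS, and which of these mice took it is not given. Whole-blood mRNA was sequenced in 5 control, 5 resilient and 5 susceptible B6 mice and in 5 control and 5 susceptible D2 mice. RNA bound by AGO2, the protein that holds microRNAs on their target transcripts, was sequenced from BNST of B6 mice in 5 control, 5 resilient and 4 susceptible pools, each made from 3 mice. Blood libraries held 9751603 to 15878495 reads on genes and AGO2 libraries 3701281 to 10659882. Of 8 neuron markers, all 8 were measured in the AGO2 libraries and 1 in blood.

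The labels of 2 D2 mice went against the names of their columns in the blood table: ED4_1 is a control by its label and a susceptible mouse by its column name, and ED4_15 the reverse. Groups below follow the labels, and the counts that involve D2 mice are also given by column name and without these 2 mice. The names of the mice begin with EC3 or EC4 in B6 and with ED3, ED4 or ED6 in D2, and the labels do not say what these prefixes stand for, so that strain and prefix cannot be told apart. Reads of both strains were aligned to the 1 mouse reference genome, which comes from a B6 substrain, and the part of this in any strain difference was not tested.

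In the type I interferon pathway, sensors such as RIG-I (Ddx58) and MDA5 (Ifih1) detect foreign RNA and lead to the release of interferon. Interferon then acts through its receptor on a complex that holds STAT2 and IRF9 and binds a DNA motif, the interferon-stimulated response element, in the promoters of its targets. The targets include Irf7, which raises further interferon production, and antiviral effectors that bind viral RNA, degrade it or block viral assembly. In healthy blood they are kept on at a tonic level. Here the mean level of the members in B6 controls ran from -0.14 log2 CPM for Oas1g to 13.14 for Rsad2.

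The promoter windows of 5 members are shown because these members have wide strain differences and differ in whether they hold the core of this motif. RefSeq windows from 250 bases before to 50 bases after the start of the gene (build GRCm38.p6) were matched for 25 of the 34 members. They were searched on either strand for GAAANNGAAA, in which N is any base, with overlapping matches counted. Each window is given 5′ to 3′ on the strand of its gene, in lower case, with the matched bases in capitals; a match on the other strand reads TTTCNNTTTC.

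Isg15, chr4:156200769-156201068, minus strand, 3 matches: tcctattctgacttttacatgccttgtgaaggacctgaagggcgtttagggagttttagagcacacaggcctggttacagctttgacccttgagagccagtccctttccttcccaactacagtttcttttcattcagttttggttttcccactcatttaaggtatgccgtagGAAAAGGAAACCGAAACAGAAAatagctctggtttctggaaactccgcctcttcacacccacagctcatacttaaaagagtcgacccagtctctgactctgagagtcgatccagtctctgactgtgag

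Ifit1, chr19:34640639-34640938, plus strand, 2 matches: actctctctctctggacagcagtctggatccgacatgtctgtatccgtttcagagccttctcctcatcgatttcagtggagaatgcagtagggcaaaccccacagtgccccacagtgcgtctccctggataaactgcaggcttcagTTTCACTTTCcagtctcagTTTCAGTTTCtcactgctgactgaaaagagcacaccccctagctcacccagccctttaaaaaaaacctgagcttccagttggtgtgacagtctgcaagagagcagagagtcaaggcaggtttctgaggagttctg

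Oas3, chr5:120777610-120777909, minus strand, 1 match: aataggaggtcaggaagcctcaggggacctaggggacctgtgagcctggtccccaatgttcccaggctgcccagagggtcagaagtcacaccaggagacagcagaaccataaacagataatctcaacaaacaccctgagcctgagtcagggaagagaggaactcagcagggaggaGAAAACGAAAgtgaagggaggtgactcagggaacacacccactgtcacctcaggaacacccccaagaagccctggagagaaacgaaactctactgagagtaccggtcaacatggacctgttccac

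Irf7, chr7:141266375-141266674, minus strand, no match: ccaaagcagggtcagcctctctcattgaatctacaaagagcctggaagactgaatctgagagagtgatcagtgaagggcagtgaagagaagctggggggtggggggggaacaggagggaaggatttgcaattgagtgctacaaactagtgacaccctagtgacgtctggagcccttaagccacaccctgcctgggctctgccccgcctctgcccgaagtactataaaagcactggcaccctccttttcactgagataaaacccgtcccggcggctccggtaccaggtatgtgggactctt

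Xaf1, chr11:72301379-72301678, plus strand, no match: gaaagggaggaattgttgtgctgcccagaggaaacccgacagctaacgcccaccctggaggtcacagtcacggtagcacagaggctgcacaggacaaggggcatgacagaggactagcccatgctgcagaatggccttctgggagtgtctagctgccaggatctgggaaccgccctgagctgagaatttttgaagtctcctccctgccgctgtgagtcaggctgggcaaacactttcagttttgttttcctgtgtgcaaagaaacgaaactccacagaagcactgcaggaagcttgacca

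The letters occurred in the windows of 15 of 25 members (60%) and in 1079 of 27025 genes with a window (3.99%). Among the 20 members called lower in D2 (limma p under 0.05 and at least 1.2-fold) in both comparisons described below, 18 had a window and 11 of these held a match, against 4 of 7 windows among the other 14 members. Those other members include some that were lower in D2 without a call in both. Irf7, the member with the widest strain difference, and Xaf1, the member most raised in D2, held none, which says only that these letters are not within these windows. A match is a description of the letters, and no binding was measured.

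In blood of control mice, most interferon-stimulated genes were lower in D2 than in B6. Of the 34 members, 21 were called lower in D2 and 2 higher, with a call at limma p under 0.05 and a change of at least 1.2-fold, while 11 did not pass. The same rule called 26.4% of all 13084 genes and 67.6% of the members, and in the direction lower in D2 it called 11.4% of all genes and 61.8% of the members. After Benjamini-Hochberg adjustment over all genes, 19 members were lower and 1, Xaf1, was higher (limma, adjusted p under 0.05), where the background was 15.5% of all genes. The log2 differences of the members ran from -2.89 to 1.54 with a median of -0.63, beside 0.01 over all genes, and 12 members were lower by over 2-fold and 4 (Irf7, Oas3, Oasl2 and Isg15) by over 4-fold. The groups did not overlap for 18 members, against 12% of all genes. By column name 26 members passed, and without the 2 mice 24 did. Scaled to the recovered reads, which moves the median of all genes to 0.18, 15 members were called lower and 2 higher: Stat2, Trim25, Mx1, Gbp3, Parp9 and Parp14 no longer passed as lower, nor Gbp2 as higher, and Ifit2 passed as higher.

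Among the factors that carry the interferon signal, Irf7 (chr7:141262706-141266481 on the minus strand, GRCm38), the transcription factor that amplifies interferon production, had the widest difference. Its level was 3.86, 3.93, 3.93, 4.18 and 4.82 log2 CPM in the 5 D2 controls and 6.63, 7.00, 7.05, 7.10 and 7.41 in the 5 B6 controls. Every D2 mouse was below every B6 mouse, by a wide gap. The mean was 4.15 ± 0.40 (SD, n = 5) in D2 and 7.04 ± 0.28 (SD, n = 5) in B6, a 7.42-fold lower level in D2, with a log2 difference of -2.89 (SE 0.23, adjusted p = 1.04e-09, exact permutation p = 0.00794). Stat2, a signal transducer downstream of the receptor, differed less. Stat2 stood at 3.86, 4.02, 4.06, 4.33 and 4.37 log2 CPM in the 5 D2 controls and 4.43, 4.49, 4.56, 4.59 and 4.84 in the 5 B6 controls. These groups also did not overlap, and the log2 difference was -0.45 (SE 0.13, adjusted p = 0.0164, exact permutation p = 0.00794). Irf9, the DNA-binding subunit of the same complex, did not pass, at -0.14 (95% interval -0.35 to 0.06).

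**Figure D1:**
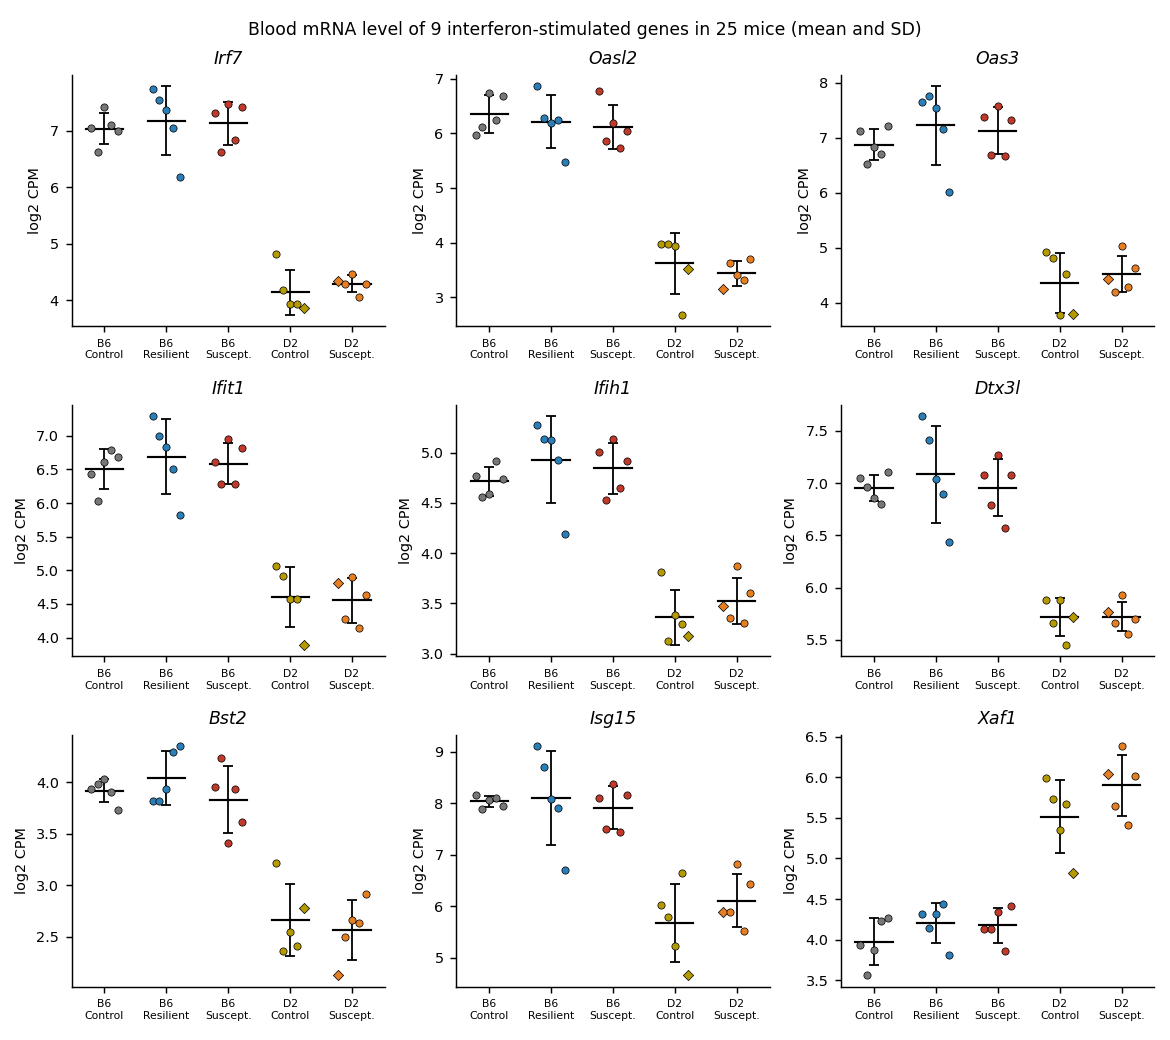
Level of named members in blood (log2 CPM, vertical axis) for each mouse of the 5 blood groups (horizontal axis), with the group mean as a line, bars for the SD and diamonds for the 2 D2 mice whose label and column name differ. For Irf7, the 10 D2 mice lie at 3.86 to 4.82 and the 15 B6 mice at 6.18 to 7.74, while for Xaf1 the order is turned round.

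The sensors were lower where they passed. Ifih1 (chr2:62595798-62646255, minus strand) encodes MDA5, the sensor of long double-stranded RNA. Its level was 3.13, 3.18, 3.30, 3.38 and 3.82 log2 CPM in the 5 D2 controls and 4.56, 4.59, 4.74, 4.77 and 4.92 in the 5 B6 controls. The groups stood apart, and the log2 difference was -1.35 (SE 0.17, adjusted p = 2.74e-06, exact permutation p = 0.00794), or 2.56-fold lower in D2. Trim25, the ubiquitin ligase that activates RIG-I, was lower by a small but separated amount, at -0.34 (SE 0.09, adjusted p = 0.00694, exact permutation p = 0.00794). Ddx58 (RIG-I itself), Dhx58 (LGP2, a regulator of both sensors) and Zbp1 (a sensor of Z-form nucleic acid) gave -0.29, -0.39 and -0.50 and did not pass. By column name Ddx58 (-0.35), Dhx58 (-0.52) and Zbp1 (-0.56) passed as lower too, so that all 5 sensors were called, and the same was so with a term for the erythroid markers described further on.

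The IFIT family, whose products bind viral RNA, differed in 1 of its 4 members. Ifit1 (chr19:34640871-34650009, plus strand) stood at 3.89, 4.57, 4.58, 4.92 and 5.06 log2 CPM in the 5 D2 controls and 6.02, 6.43, 6.62, 6.69 and 6.79 in the 5 B6 controls. No D2 mouse reached the lowest B6 mouse, and the log2 difference was -1.91 (SE 0.24, adjusted p = 1.82e-06, exact permutation p = 0.00794), or 3.75-fold lower. Its neighbours in the family gave 0.56 (Ifit2), -0.02 (Ifit3) and 0.26 (Ifit3b), none of them called. Ifit2 passed as higher in D2 by column name (0.71), without the 2 mice (0.78), and with quantile normalization, voom, the recovered reads, sample weights or the erythroid term, and Ifit3b passed as higher with sample weights (0.60). Of the 75-base windows along the longest transcript, 41.1% in Ifit3 and 35.7% in Ifit3b also occur in another gene, so reads of this pair may be lost or split.

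In the OAS family, whose enzymes make the second messenger that activates RNase L against viral RNA, or resemble them without that activity, 5 of 6 members were called lower. Oas3 (chr5:120753098-120777661, minus strand) stood at 3.78, 3.80, 4.52, 4.81 and 4.92 log2 CPM in the 5 D2 controls and 6.52, 6.70, 6.83, 7.12 and 7.21 in the 5 B6 controls. Its log2 difference was -2.51 (SE 0.28, adjusted p = 4.03e-07, exact permutation p = 0.00794), or 5.69-fold lower in D2. The values of the D2 mice did not reach those of the B6 mice. Oasl2 (chr5:114896936-114912234, plus strand) stood at 2.68, 3.52, 3.94, 3.98 and 3.98 log2 CPM in the 5 D2 controls and 5.96, 6.12, 6.25, 6.68 and 6.74 in the 5 B6 controls. It was 6.63-fold lower in D2, with a log2 difference of -2.73 (SE 0.25, adjusted p = 9.29e-09, exact permutation p = 0.00794). Oasl1 followed at -0.85 and Oas1a at -1.24, both without overlap, and Oas1g at -1.87, while Oas2 did not pass (-0.36), except with the erythroid term (-0.64). Oas1a and Oas1g are uncertain, since 47.6% and 44.6% of their windows occur in another gene, and Oas1g rested on 0 to 33 reads per mouse.

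The interferon-induced GTPases were mixed. Gbp3, a guanylate-binding protein, was lower in D2 at -0.67 (SE 0.18, adjusted p = 0.0113, exact permutation p = 0.00794), and Mx1, the myxovirus resistance protein, was called lower at -0.75 but missed the adjusted threshold (adjusted p = 0.102). Gbp2 was called higher at 0.43 (adjusted p = 0.104), with groups that overlapped, and Mx2, which the annotation lists as a polymorphic pseudogene, gave 0.20 and did not pass. Gbp2 did not pass by column name (0.33), with quantile normalization or scaled to the recovered reads. With sample weights Mx1 did not pass (-0.38), and Mx2 passed as higher (0.51).

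Of the 7 other effectors, 5 were called lower and 1 higher. Bst2 (chr8:71534255-71537456, minus strand) encodes tetherin, which holds budding virus at the cell surface. Its level was 2.36, 2.41, 2.55, 2.78 and 3.22 log2 CPM in the 5 D2 controls and 3.74, 3.90, 3.94, 3.98 and 4.03 in the 5 B6 controls. All D2 values were below all B6 values, with a log2 difference of -1.26 (SE 0.18, adjusted p = 9.2e-06, exact permutation p = 0.00794), or 2.39-fold lower. Rsad2 (viperin), the member with the highest level per kilobase of exon, was 2.79-fold lower at -1.48 (SE 0.42, adjusted p = 0.0149, exact permutation p = 0.00794), and its neighbour on chromosome 12, the nucleotide kinase Cmpk2, was lower at -0.95. Eif2ak2, the double-stranded RNA kinase PKR that stops translation, was lower at -0.69, and Ifi44, at 3 to 56 reads per mouse, was lower at -1.73 with overlapping groups. Rtp4 did not pass (-0.28).

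Xaf1 (chr11:72301629-72313733, plus strand), a pro-apoptotic antagonist of XIAP, went the other way. It stood at 4.83, 5.34, 5.67, 5.74 and 5.99 log2 CPM in the 5 D2 controls and 3.57, 3.88, 3.94, 4.23 and 4.27 in the 5 B6 controls. The log2 difference was 1.54 (SE 0.20, adjusted p = 2.43e-06, exact permutation p = 0.00794), or 2.9-fold higher in D2, and every D2 mouse was above every B6 mouse.

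Isg15 (chr4:156199424-156200818, minus strand), the ubiquitin-like protein attached to other proteins during an antiviral response, was among the most reduced members. It stood at 4.66, 5.23, 5.79, 6.02 and 6.65 log2 CPM in the 5 D2 controls and 7.89, 7.95, 8.06, 8.10 and 8.17 in the 5 B6 controls. The D2 controls ranged widely and the B6 controls narrowly, without overlap, and the log2 difference was -2.36 (SE 0.36, adjusted p = 2.57e-05, exact permutation p = 0.00794), or 5.14-fold lower. Usp18, the protease that removes ISG15, gave -0.20 (95% interval -0.66 to 0.26) and did not pass.

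All 3 members of the PARP9 module, an ADP-ribosyltransferase and ubiquitin ligase group that amplifies interferon responses, were called lower, and Dtx3l alone when scaled to the recovered reads. Dtx3l (chr16:35926511-35939151, minus strand), the ubiquitin ligase of the pair, stood at 5.45, 5.66, 5.72, 5.88 and 5.88 log2 CPM in the 5 D2 controls and 6.80, 6.85, 6.96, 7.05 and 7.10 in the 5 B6 controls. Its log2 difference was -1.23 (SE 0.17, adjusted p = 5.21e-06, exact permutation p = 0.00794), or 2.35-fold lower, with groups far apart. Parp9, its partner, was lower at -0.59 and Parp14 at -0.35, though Parp14 did not pass with sample weights (-0.25). Exons of Parp9 and Dtx3l overlap by 458 bases on opposite strands, and the strand setting of the read counting was not given in the sources used here.

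**Figure D2:**
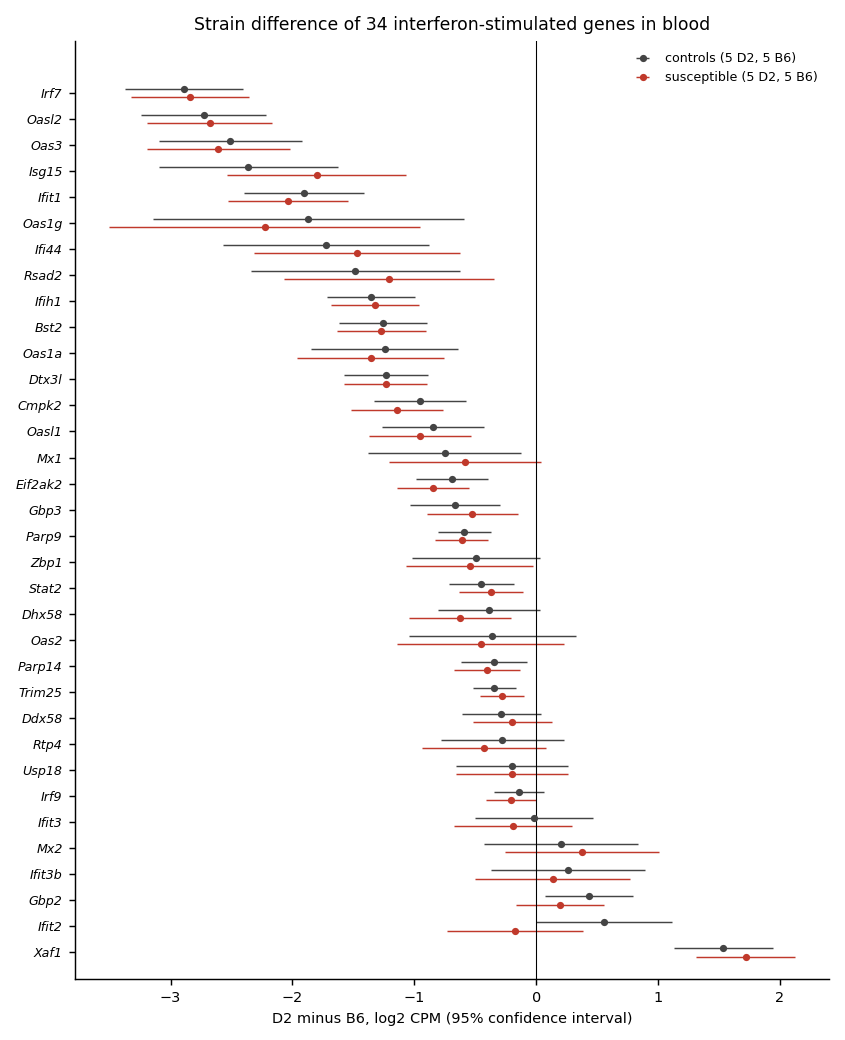
Difference between D2 and B6 in blood for each of the 34 members (log2 scale, D2 minus B6, horizontal axis) in control mice and in susceptible mice, with bars for the 95% interval from limma. Most members lie left of 0 in both comparisons, down to -2.89 for Irf7, and Xaf1 lies to the right at 1.54 and 1.72.

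The same strain difference was seen in susceptible mice, which are other animals than the controls. Of 34 members 22 were called lower in D2 and 1, Xaf1, higher, again 67.6% of the members, against 23.7% of all genes, and for lower calls 64.7% of the members against 12.4% of all genes. The median log2 difference was -0.60, beside -0.01 over all genes, and 18 members lower and Xaf1 higher held after adjustment over all genes, with a background of 13.9%. The groups did not overlap for 19 members, against 12.3% of all genes. By column name 23 members passed, and without the 2 mice 22 did. Scaled to the recovered reads, which moves the median of all genes to 0.25, 15 were called lower and Xaf1 higher.

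In the susceptible mice Irf7 was at 4.05, 4.29, 4.30, 4.35 and 4.47 log2 CPM in D2 and 6.63, 6.83, 7.32, 7.41 and 7.48 in B6. This is 7.16-fold lower in D2, at -2.84 (SE 0.23, adjusted p = 1.59e-09, exact permutation p = 0.00794). Oasl2 was at 3.15, 3.31, 3.40, 3.64 and 3.70 log2 CPM in D2 and 5.74, 5.86, 6.04, 6.18 and 6.77 in B6. It was 6.41-fold lower, at -2.68 (SE 0.25, adjusted p = 1.19e-08, exact permutation p = 0.00794), and neither gene overlapped between strains.

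Oas3 was at 4.20, 4.29, 4.43, 4.64 and 5.03 log2 CPM in D2 and 6.66, 6.69, 7.32, 7.38 and 7.58 in B6, a difference of -2.61 (SE 0.28, adjusted p = 1.94e-07, exact permutation p = 0.00794). Xaf1 was at 5.41, 5.65, 6.01, 6.04 and 6.38 log2 CPM in D2 and 3.87, 4.13, 4.14, 4.34 and 4.41 in B6, a difference of 1.72 (SE 0.20, adjusted p = 4.08e-07, exact permutation p = 0.00794), and so again was higher in D2. Isg15 was at 5.52, 5.89, 5.89, 6.43 and 6.83 log2 CPM in D2 and 7.44, 7.49, 8.11, 8.16 and 8.36 in B6. Its difference was -1.80 (SE 0.36, adjusted p = 0.000701, exact permutation p = 0.00794), or 3.49-fold lower, also without overlap. Stat2 was at 3.87, 4.02, 4.12, 4.14 and 4.34 log2 CPM in D2 and 4.22, 4.26, 4.52, 4.62 and 4.71 in B6. With overlapping groups it was called at -0.37 but missed the adjusted threshold (adjusted p = 0.0575).

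Across both comparisons, 21 members were called in the same direction, and 33 of 34 had the same sign, the exception being Ifit2. Mx1 and Gbp2 were called in controls but not in susceptible mice, and Dhx58 and Zbp1 the reverse, though Zbp1 did not pass in susceptible mice by column name (-0.48) or without the 2 mice (-0.48). The interaction of strain and susceptibility called none of the 34 members, with a smallest limma p of 0.0679 (adjusted p = 0.931), against 5.37% of all genes. The members called in neither were Irf9, Ddx58, Ifit2, Ifit3, Ifit3b, Oas2, Mx2, Rtp4 and Usp18. With the resilient mice added, all 10 D2 mice lay below all 15 B6 mice for 12 members: Irf7, Ifih1, Trim25, Ifit1, Oas3, Oasl1, Oasl2, Eif2ak2, Cmpk2, Bst2, Parp9 and Dtx3l. Over all genes 2.23% did so, while Xaf1 was the only member for which all D2 mice lay above, as 2.64% of all genes did.

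Some markers of blood cell types differed between strains as well. Their part in the differences of the members was not tested, beyond a fit with an erythroid term given further on. Over all genes in controls, 11.4% were called lower in D2 and 15% higher. In controls, 9 of 10 B cell markers were called lower in D2, and their summed level was 895 to 1735 CPM in D2 and 1436 to 2089 CPM in B6. Platelet markers were called higher for 6 of 9, with sums of 3690 to 14160 CPM in D2 and 1594 to 6133 CPM in B6, and 2 of 12 neutrophil markers and 2 of 10 monocyte markers were called higher. NK cell markers were called lower for 3 of 8, T cell markers lower for 2 and higher for 3 of 10, and markers of plasmacytoid dendritic cells, which release much interferon, lower for 1 and higher for 1 of the 5 that were measured. Erythroid markers were called lower for 4 of the 9 measured, with sums of 67360 to 182500 CPM in D2 and 119400 to 186200 CPM in B6. The 1 or 2 calls on the neutrophil, monocyte and plasmacytoid dendritic cell lists in controls are too few to set apart from the shares of all genes. In susceptible mice, 2 of 10 B cell markers were called lower and none of the 9 platelet markers higher. Of all genes, 12.4% were called lower there and 11.3% higher, and calls of the other cell types are not given here. In whole blood, fewer cells of a type and less RNA per cell cannot be told apart.

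Other genes of the interferon pathway were taken from a list of 113, of which 97 were measured in blood. In controls, 28 were called lower in D2 and 8 higher, with a median of -0.21, and in susceptible mice 35 lower and 2 higher, with a median of -0.30. Over all genes, 26.4% were called in controls, 11.4% as lower, and 23.7% in susceptible mice, 12.4% as lower. Of 10 ligands, Ifng alone was measured, at a log2 difference of -1.28 in controls (limma, adjusted p = 0.0493). Of 9 receptors and receptor kinases, 2 were called higher, Ifnar2, a subunit of the type I interferon receptor (0.88, adjusted p = 0.00128), and Ifnlr1. Of the transcription factors, Irf2 was lower (-0.44), and of 12 genes of sensing and induction 1 was lower, the kinase Tbk1 (-0.74), and 2 were higher, Tlr8 and Myd88. The further interferon-induced genes were lower for 23 and higher for 3 of 59.

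By p-value, the list was led by Mndal, a member of the Ifi200 family, at 1.70 ± 0.19 log2 CPM in D2 and 6.58 ± 0.21 in B6 controls (SD, n = 5 each; -4.88, limma adjusted p = 4.07e-16). Trim34a, a tripartite motif gene, was at -3.70 (adjusted p = 1.01e-12), Gbp8 at -3.25 and the GTPase Tgtp2 at -1.34, and in susceptible mice Mndal was at -4.73 and Trim34a at -3.09.

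Within a strain the members differed between mice, and these mice were picked out after their values were seen. Among the 15 B6 mice, 8 members were highest in the resilient mouse EC3_2 and lowest in the resilient mouse EC4_8: Irf7, Ifih1, Ifit1, Oasl2, Rsad2, Cmpk2, Isg15 and Dtx3l. Other members ran against this, so that 15 of 34 were higher and 19 lower in EC3_2 than in EC4_8. Isg15 was 9.10 log2 CPM in EC3_2 and 6.71 in EC4_8, beside a B6 median of 8.09. These values depend on the scaling. The library size used for CPM was 0.644 times the reads in EC3_2 and 1.47 times the reads in EC4_8. In recovered reads, EC3_2 and EC4_8 held 5234 and 2438 of Isg15, 2040 and 1691 of Irf7, 1899 and 2020 of Dtx3l and 369 and 425 of Ifih1. Their libraries held 14791202 and 15878495 reads, and the part of the scaling in this spread was not tested. Even in EC4_8, Irf7 at 6.18 was above the highest D2 value of 4.82, while Isg15 fell within the D2 range, whose highest value was 6.83.

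Markers of red cells and their precursors moved with this spread. Their summed level without the globins, which the library kit depletes, was 202700 CPM in EC3_2 and 46620 CPM in EC4_8. Per doubling of this sum, with a term for each group, Rsad2 was higher by 0.88 on the log2 scale (SE 0.12), Isg15 by 0.85 (SE 0.13), Oas3 by 0.67 (SE 0.11) and Irf7 by 0.48 (SE 0.10) over the 25 mice, and the sum and the members come from the same libraries. Both are divided by the same scaled library size, so the scaling alone can move them together, and its part in the slopes was not tested. Oas1g (-0.81), Oas2 (-0.62), Mx1 (-0.56) and Mx2 (-0.53) had negative slopes. The slope was above 0 for 14 members and below 0 for 20, and 3 members lay above the highest decile of all genes and 5 below the lowest, so the members did not share 1 direction. With this sum as a term, an alternative chosen after the data were seen, Irf7 was -2.68 between control strains and -2.69 between susceptible strains, and 28 and 27 members passed.

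**Figure D3:**
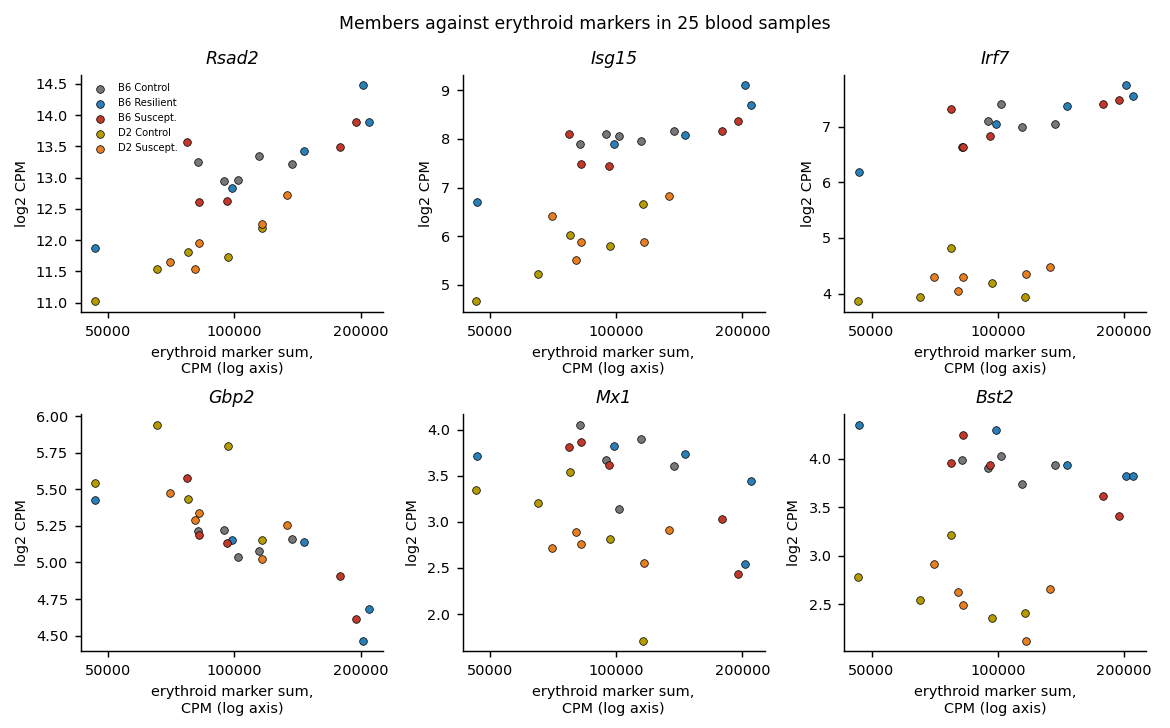
Level of named members (log2 CPM, vertical axis) against the summed level of erythroid markers without globins (CPM, log axis) in 25 blood libraries, coloured by the 5 groups. Isg15 rises from 6.71 to 9.10 between the B6 mice EC4_8 and EC3_2, and for Irf7 the B6 and D2 mice stay apart over the whole range. Both axes are divided by the same scaled library size of each mouse.

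Social defeat moved none of the 34 members past the call in blood. In B6, resilient against control mice gave 0 calls, where 2.11% of all genes were called, susceptible against control 0 (4.5% of all genes) and susceptible against resilient 0 (2.03%). In D2, susceptible against control mice gave 0 (1.57% of all genes). No member had an unadjusted limma p under 0.05 in any of these, and the smallest p was 0.0767, 0.272, 0.243 and 0.0608. The median log2 difference over the members was 0.06, 0.01, -0.05 and -0.03, in the same order.

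Irf7 ranged over 6.63 to 7.41 log2 CPM in control, 6.18 to 7.74 in resilient and 6.63 to 7.48 in susceptible B6 mice, with overlap of all ranges. Stat2 ranged over 4.43 to 4.84 log2 CPM in control, 4.26 to 4.74 in resilient and 4.22 to 4.71 in susceptible B6 mice. Isg15 ranged over 7.89 to 8.17 log2 CPM in control, 6.71 to 9.10 in resilient and 7.44 to 8.36 in susceptible B6 mice, and the resilient mice had both the lowest and the highest value. In the 5 resilient mice, Irf7 was 6.18, 7.05, 7.36, 7.55 and 7.74, Stat2 4.26, 4.37, 4.40, 4.66 and 4.74 and Isg15 6.71, 7.90, 8.09, 8.71 and 9.10 log2 CPM. The differences of single members stayed within -0.43 and 0.44 over the 4 comparisons. The 95% interval of a difference had a median half-width of 0.471 and was widest at 1.28.

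The D2 comparison depended on which mice were counted where. By column name 2 members passed, Ifit2 (-0.75) and Mx2 (0.60), and without the 2 mice Ifit2 passed (-0.74). With sample weights, which give less weight to mice whose values vary more, 8 members passed, all lower in susceptible mice: Dhx58 (-0.42), Ifit2 (-0.58), Ifit3 (-0.42), Ifit3b (-0.53), Oas1a (-0.48), Oasl2 (-0.37), Mx1 (-0.46) and Gbp2 (-0.31). By column name Ifit2 also passed the interaction (-1.05), and without the 2 mice (-1.04). Without the resilient mouse EC4_8, 4 members passed as higher in resilient than control B6 mice, Ifih1 (0.40), Oas3 (0.65), Eif2ak2 (0.31) and Cmpk2 (0.52), where 0 had passed with it, and Cmpk2 passed as lower in susceptible than resilient B6 mice (-0.35). Within EC3, EC4, ED3, ED4 and ED6, the median member difference between susceptible and control mice was 0.13, -0.12, -0.43, 0.03 and 0.16, with 1 to 3 mice a group, and between resilient and control mice it was 0.03 in EC3 and 0.02 in EC4.

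On the pathway list, the calls after defeat were few and none held after adjustment over all genes (limma, adjusted p over 0.9). Of the 97 genes measured, 1 was called higher in resilient than control B6 mice, 3 in susceptible than control B6 mice, 1 in susceptible than resilient B6 mice and 0 in the D2 comparison, against 2.11%, 4.5%, 2.03% and 1.57% of all genes called in either direction, and the interaction called 5, all lower, against 5.37%. Those with the smallest p are named here. Oas1b was called higher in resilient than control B6 mice (0.46), Ifitm1 (1.16) and Ifitm2 (0.68), antiviral membrane proteins, in susceptible than control B6 mice, and Ifnlr1 (0.96), a receptor of type III interferon, in susceptible than resilient B6 mice. In the interaction, Ifitm2 (-1.02) and the mitochondrial NLR protein Nlrx1 (-1.14) passed.

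**Figure D4:**
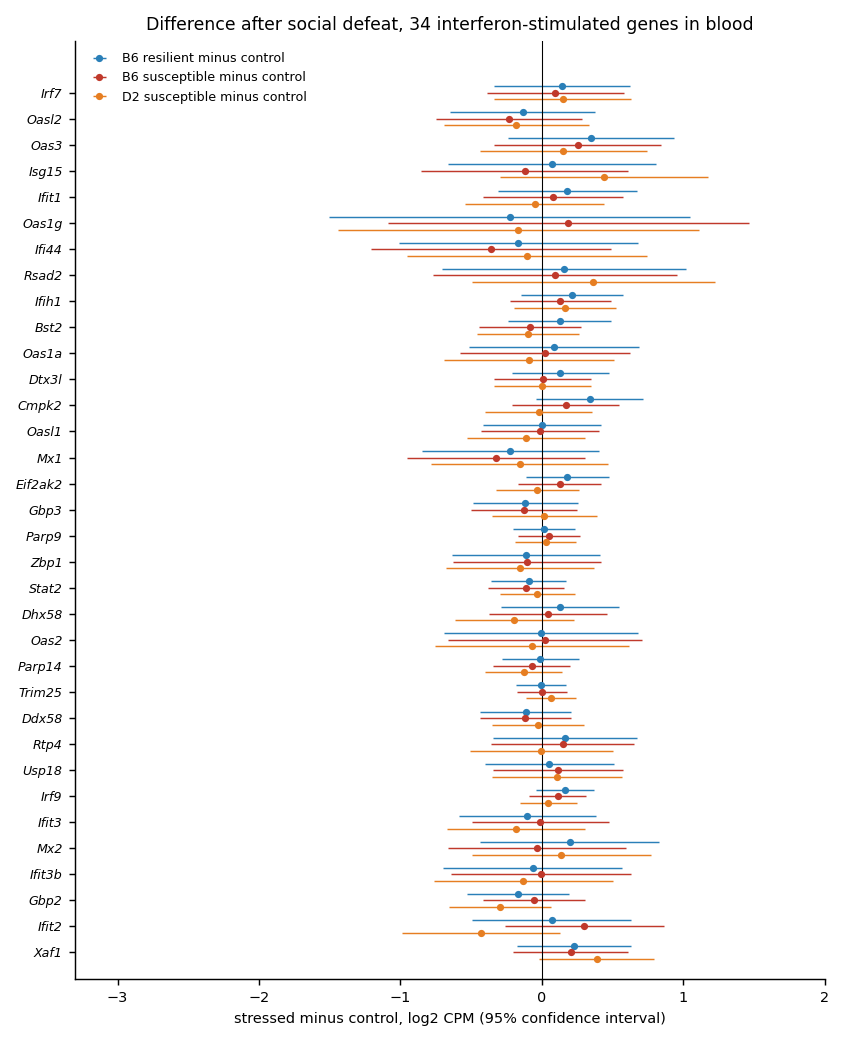
Difference after social defeat for each of the 34 members in blood (log2 scale, defeated group minus control group, horizontal axis) for resilient and susceptible B6 mice and susceptible D2 mice, each against the controls of the strain, with 95% intervals from limma. Every point lies between -0.43 and 0.44, and every interval contains 0.

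In BNST, the AGO2-bound fraction held 24 of the 34 members. Zbp1, Oas1a, Oas1g, Oas3, Oasl1, Mx1, Bst2, Ifi44, Rtp4 and Usp18 were not among the genes kept in this table. A higher value can come from more binding or from a more abundant transcript, and these cannot be told apart. Between resilient and control pools, 4 members were called, all higher: Stat2, Irf9, Dhx58 and Oas2, which is 16.7% of the members against 17.7% of all genes. Between susceptible and control pools, 5 were called higher (these 4 and Mx2) and 3 lower (Isg15, Rsad2 and Ifit3), which is 33.3% of the members against 18.9% of all genes. Both comparisons use the same control pools. The experimental cohort of a pool is not given in the sources used here, so no fit holds it as a term and its part was not tested. Between susceptible and resilient pools, 2 were called lower, Dtx3l and Irf7, which is 8.33% of the members against 2.14% of all genes. Without pool Susceptible_4, 4 members passed between susceptible and control pools, and without pool Resilient_5 none passed between susceptible and resilient pools.

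Stat2 was at 5.73, 5.86, 5.88, 5.89 and 5.99 log2 CPM in the 5 control pools, 6.11, 6.36, 6.54, 6.68 and 6.78 in the 5 resilient pools and 6.31, 6.40, 6.47 and 6.56 in the 4 susceptible pools. The control pools lay below the pools of either defeated group. The difference was 0.62 (SE 0.11, adjusted p = 0.0152, exact permutation p = 0.00794) for resilient and 0.57 (SE 0.12, adjusted p = 0.0187, exact permutation p = 0.00794) for susceptible pools against control. Irf9 was at 4.10, 4.32, 4.37, 4.48 and 4.57 log2 CPM in the 5 control pools, 4.67, 4.77, 4.82, 5.00 and 5.15 in the 5 resilient pools and 4.61, 4.87, 5.10 and 5.12 in the 4 susceptible pools. Its differences from control were 0.52 (SE 0.13, adjusted p = 0.0512, exact permutation p = 0.00794) and 0.56 (SE 0.14, adjusted p = 0.036, exact permutation p = 0.00794). Dhx58 was at 1.61, 1.87, 2.13, 2.14 and 2.20 log2 CPM in the 5 control pools, 2.74, 2.76, 2.78, 2.84 and 3.62 in the 5 resilient pools and 2.23, 2.25, 2.81 and 2.98 in the 4 susceptible pools. It differed by 0.95 (SE 0.23, adjusted p = 0.0384, exact permutation p = 0.00794) between resilient and control pools and by 0.58 between susceptible and control pools, and pool Resilient_2 stood above the other resilient pools. Oas2 gave 1.88 and 1.93, and Mx2 0.70 between susceptible and control pools, none of which held after adjustment (limma, adjusted p = 0.142, 0.141 and 0.149). Oas2 rested on 0 to 4 reads in a control pool, 2 to 11 in a resilient pool and 2 to 12 in a susceptible pool. Pools Control_1 and Control_3 had 0 reads of it, and their values come from the 0.5 reads that voom adds.

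Isg15 rested on few reads, 0 to 17 a pool, and was at 0.42, 0.76, 0.80, 1.06 and 1.22 log2 CPM in the 5 control pools, -0.96, -0.72, -0.63, 1.15 and 1.49 in the 5 resilient pools and -3.36, -1.2, -0.33 and -0.10 in the 4 susceptible pools. Pool Susceptible_1 had 0 reads of it, and its value of -3.36 comes from the 0.5 reads that voom adds. The difference between susceptible and control pools was -2.10 (SE 0.66, adjusted p = 0.0802, exact permutation p = 0.00794) and did not hold after adjustment, though every susceptible pool was below every control pool. Rsad2 (-1.55) and Ifit3 (-1.08) were called lower in the same comparison, with adjusted p-values of 0.189 and 0.203 (limma). Irf7 was at -0.83, -0.53, 0.62, 0.65 and 1.25 log2 CPM in the 5 control pools, 0.06, 0.22, 0.42, 0.95 and 2.00 in the 5 resilient pools and -3.36, -0.33, 0.24 and 0.39 in the 4 susceptible pools, and pool Susceptible_1 again had 0 reads. Susceptible and resilient pools differed by -1.50 (SE 0.70, adjusted p = 1, exact permutation p = 0.0794), and without that pool by -0.63, which is not a call. Dtx3l was at 1.57, 1.81, 2.02, 2.39 and 3.56 log2 CPM in the 5 control pools, 2.00, 2.34, 2.60, 2.70 and 3.15 in the 5 resilient pools and 0.75, 1.61, 2.07 and 2.28 in the 4 susceptible pools, a difference of -0.88 (SE 0.38, adjusted p = 1, exact permutation p = 0.0476) between susceptible and resilient pools.

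Cell type markers differed between the pools too, and their part was not tested. All 8 neuron markers summed to 2183 to 2448 CPM in control, 1984 to 2203 CPM in resilient and 1644 to 2175 CPM in susceptible pools. Oligodendrocyte markers summed to 3333 to 5061, 2099 to 4235 and 2017 to 3445 CPM, in the same order, and microglia markers to 153 to 189, 162 to 200 and 148 to 198 CPM.

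Of the pathway list, 80 of 113 genes were measured in the AGO2 libraries. Between resilient and control pools 9 were called higher and 2 lower, between susceptible and control pools 11 higher and 6 lower, and between susceptible and resilient pools none higher and 4 lower. In the same order, 17.7%, 18.9% and 2.14% of all genes were called. Trafd1, an inhibitor of innate signalling, was higher than in the shared control pools by 0.55 in resilient (limma, adjusted p = 0.0255) and 0.58 in susceptible pools (adjusted p = 0.0162). The ubiquitin ligase Rnf213 was higher by 0.47 in resilient (limma, adjusted p = 0.0333) and 0.55 in susceptible pools (adjusted p = 0.0161). The receptor kinase Tyk2 was called in both, at 0.43 in resilient (limma, adjusted p = 0.0605) and 0.65 in susceptible pools (adjusted p = 0.0124). Between susceptible and resilient pools the lower genes included Gbp7 (-0.77) and Ifi27 (-0.54), neither of which held after adjustment.

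**Figure D5:**
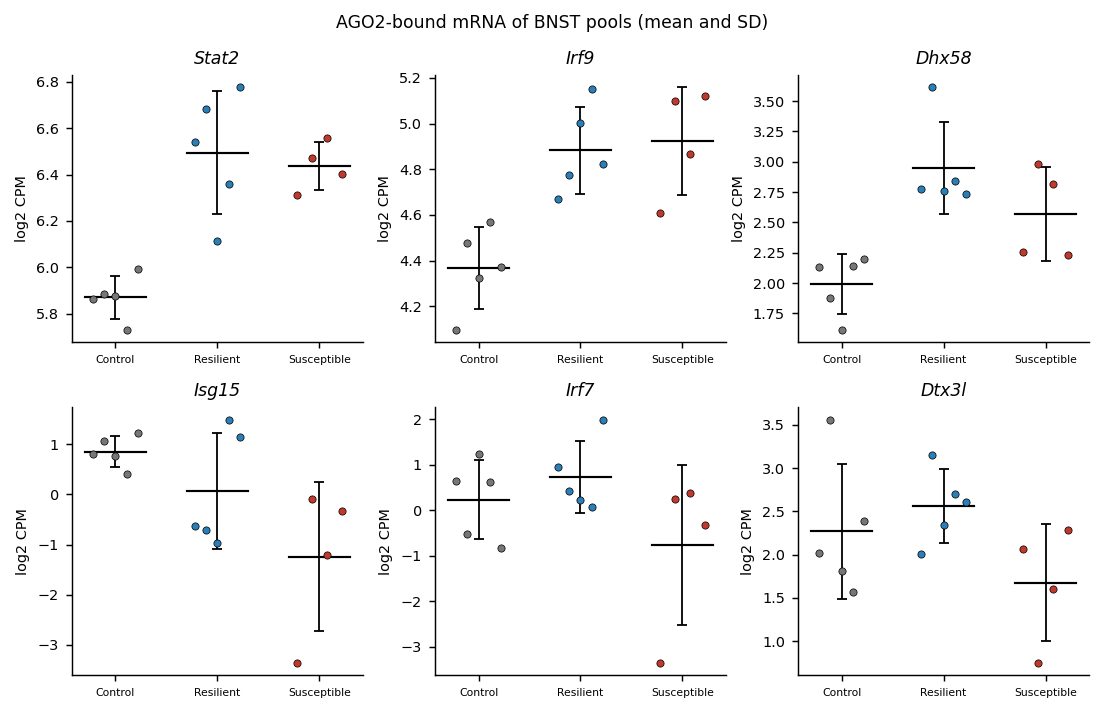
Level of named members in AGO2-bound RNA of BNST (log2 CPM, vertical axis) for each pool of the control, resilient and susceptible groups (horizontal axis), with the group mean as a line and bars for the SD. Stat2 is higher in both defeated groups than in control, and Irf7 and Isg15 drop in pool Susceptible_1, which had 0 reads of either.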

How the data were processed

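Blood mRNA was taken from 25 mice and AGO2-bound BNST mRNA from 14 pools. Per the paper's methods, the authors depleted ribosomal and globin RNA in blood and made the AGO2 libraries with a stranded mRNA kit, aligned reads with STAR to GRCm38, counted reads on exons with HTSeq and Ensembl release 86, and kept genes with at least 1 CPM in 6 blood samples or in 3 AGO2 samples. The deposited values are log2 CPM from voom, made by the authors with normalised library sizes and 0.5 added reads. The authors then adjusted the AGO2 mRNA values for experimental cohort with ComBat, but the deposited AGO2 values gave back whole reads and so lack that step, and no cohort term was fitted. No column of these tables was without a sample, and the microRNA tables were not used here.

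Whole reads were recovered from the log2 CPM steps and used for depth and for alternatives. The log2 values were tested with limma 3.58.1 in R 4.3.3 (lmFit, eBayes with trend), 1 model per table over all its groups. A call needed p under 0.05 and a change of at least 1.2-fold, and adjusted p-values are Benjamini-Hochberg over all genes of the table. Exact permutation p-values are two-sided, and the smallest that 5 against 5 or 4 against 5 allow is 0.00794. Values in every sample are given for the 8 called members with the smallest p between control strains, the 4 in each other blood comparison and the 3 in each AGO2 comparison, and for Irf7, Stat2 and Isg15 in blood, and from the pathway list the 4 called genes with the smallest p between control strains and the 2 in each other comparison are named, the others shown by role. The members and all lists were chosen with earlier results of these data known. Levels per kilobase use the exon length of each gene in GENCODE M21. 1 gene of the pathway list is not reported here. The scripts were tested on simulated data. Alternatives were another scaling, voom on the reads, sample weights, no trend, a mean of at least 2 log2 CPM, only the groups compared, the name prefix or the replicate number as a term, D2 groups by column name, and leaving out each sample. Leaving out both mice with unlike names and a term for the erythroid markers were chosen after seeing the data. The labels do not say that the AGO2 pools with the same number belong together, and the deviations of same-numbered pools correlated at -0.172 to 0.140 over 13 pairs, so the numbers do not pair them.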

Additional observations from a re-analysis of the deposited data

Results flagged for a closer look

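In 9 of the 242 sets of group and member tested, 1 sample stood apart from the rest of its group by Dixon's gap, which is fewer than the 12.1 that chance gives at 1 in 20. In blood, the resilient B6 mouse EC4_8 was low for Eif2ak2 (5.40 log2 CPM, the others 6.01 to 6.05) and Usp18 (4.04, the others 4.92 to 5.26). The resilient B6 mouse EC3_5 was low for Rtp4 (3.11, the others 3.87 to 4.06). The D2 mouse ED4_15, which is susceptible by its label and a control by its column name, was low for Oas1g (-4.56, the others -1.75 to -1.35, with 0 reads) and for Parp14 (5.99, the others 6.20 to 6.26). In the AGO2 libraries, pool Susceptible_1 was low for Ddx58 (2.13, the others 2.60 to 2.65) and pool Resilient_3 was low for Xaf1 (0.861, the others 3.07 to 3.69). Pool Resilient_2 was high for Dhx58 (3.62, the others 2.74 to 2.84) and pool Susceptible_4 was high for Xaf1 (3.54, the others 2.53 to 2.66).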

How the results depend on the processing

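The members called between strains numbered 16 to 28 under every alternative, and no named value reversed. Scaling to the recovered reads, which moved the median of all genes to 0.18 in controls and 0.25 in susceptible mice, gave 17 and 16 calls, of which 15 and 15 were lower. Leaving out 1 mouse gave 21 to 26 calls in controls and 21 to 26 in susceptible mice. Of 397 alternatives of named values, 380 kept their direction and side of the threshold, and 17 kept their direction only, all for Irf7 or Dtx3l between susceptible and resilient AGO2 pools.

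Between susceptible and control D2 mice, against 0 members as reported, 2 were called by column name, 8 with sample weights (all lower: Dhx58, Ifit2, Ifit3, Ifit3b, Oas1a, Oasl2, Mx1 and Gbp2), and 1 each with quantile normalization, the prefix as a term, without the 2 mice and with the erythroid term, and 0 to 1 without a mouse. The interaction gave 1 by column name, on the recovered reads, without the 2 mice and with the erythroid term, and 0 to 1 without a mouse. Resilient against control B6 mice gave 1 with voom on the reads (Cmpk2) and 0 to 4 without a mouse, susceptible against resilient B6 mice 0 to 1 and susceptible against control B6 mice 0 to 0. The cause was not tested.

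In AGO2 libraries, leaving out 1 pool gave 4 to 4 calls for resilient against control, 4 to 8 for susceptible against control (4 without Susceptible_4) and 0 to 3 for susceptible against resilient (0 without Resilient_5). A mean of at least 2 log2 CPM, which leaves 15 members, gave 4 calls for susceptible against control. Susceptible against resilient gave 1 call with no trend, quantile normalization, the recovered reads, voom on the reads, a mean of at least 2 log2 CPM or only the groups compared. With the replicate number as a block, the calls were 4, 7 and 0, and Dtx3l and Irf7 lost theirs, though the numbers only name the pools. With 4 or 5 samples a group, a change smaller than the half-width of its 95% interval cannot be called. Isg15, Irf7 and Oas2 in AGO2 libraries and Oas1g and Ifi44 in blood rest on few reads.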
